A study of Rattus norvegicus with 4 samples.

Results

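Solute carriers are membrane proteins that move small molecules and ions across the plasma membrane and the membranes of organelles. The carriers described here belong to the families Slc2, Slc4, Slc5, Slc8, Slc9, Slc12, Slc16, Slc20, Slc22, Slc24, Slc26, Slc30, Slc39 and Slc40, which transport sugars, monocarboxylates, inorganic ions, organic ions and metals. Members were all gene names on the array that begin with 1 of these family symbols. The rule reads names alone. It gave 117 of 35658 gene names, carried by 145 probes, and 3 of them (Slc4a1ap, Slc9a3r1 and Slc9a3r2) are adaptor or scaffold proteins that bear a carrier's name and transport nothing.

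The cells were cultured olfactory ensheathing cells, the glia that accompany the axons of olfactory neurons, from male Fischer rats. Cells of the olfactory mucosa were compared with cells of the olfactory bulb, and both were grown by the same culture protocol. Each of 4 arrays held 1 biological replicate pair, with mucosa cells in Cy5 and bulb cells in Cy3, so a positive log2 ratio means a higher signal in mucosa cells. No array had the dyes swapped, so the effect of tissue and the effect of dye cannot be told apart. Before labelling, the cDNA of every sample was amplified by PCR.

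Carriers differ in what drives them. Slc2 proteins let glucose and related sugars run down their gradient, whereas Slc5 proteins pull sugars, inositol, iodide or choline inward with sodium. Slc16 proteins pass lactate, pyruvate and related acids with protons, and glia release lactate this way. Slc39 proteins (ZIP) bring zinc, manganese or iron into the cytosol, and Slc30 proteins (ZnT) remove zinc or manganese from it. The Slc4, Slc9, Slc12 and Slc26 families set pH and chloride, and Slc8 and Slc24 proteins export calcium in exchange for sodium.

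Of the 117 names, 106 had a probe bright enough to test, meaning well above background in the mucosa or the bulb channel on 3 or 4 arrays. Of these, 2 were higher in mucosa cells (Slc26a7 and Slc39a8) and 1 was lower (Slc30a10) at a limma adjusted p under 0.05, in all 2.83% of the members tested. Over all 31868 names tested, 6.62% passed in either direction, 3.24% higher and 3.39% lower in mucosa cells. The members' share was thus below that of the array as a whole. An unadjusted limma p under 0.05 was found for 18 of 106 members, against 7575 of 31868 names (23.8%). With each array centred on its median in place of loess, 59.6% of all calls were higher in mucosa cells, against 48.9%. The called metal importer was higher and the called metal exporter lower in mucosa cells. In such samples fewer cells of a type and less RNA per cell cannot be told apart.

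Cell type markers differed between the cultures as well. Defining glial markers (Ngfr, S100b and Sox10) were well above background on all 4 arrays in both channels. Of 10 markers of ensheathing and Schwann glia, 6 fell and 0 rose in mucosa cells, and their summed signal was 21411 to 23880 in mucosa and 46644 to 60894 in bulb channels. Of 4 tested markers of smooth muscle and pericytes, 3 rose, and the sums were 89741 to 102830 against 16076 to 27144. Of 10 markers of fibroblasts and meninges, 3 rose (Thy1, Col1a1 and Col1a2) and 2 fell (Dcn and Slc6a13). Their sums were 250948 to 289063 against 98582 to 143733, while the median log2 ratio of the list was -0.24. This list holds the member Slc22a6. Of 5 epithelial markers, 1 rose and 1 fell (9142 to 15435 against 3201 to 4394), and of 6 neuronal markers 2 fell (1138 to 1653 against 3243 to 4147). Of 6 astrocyte markers 2 fell (1341 to 3853 against 2065 to 2648), of 4 tested endothelial markers 1 rose and 1 fell (1948 to 2888 against 2101 to 3785), and of 5 tested markers of macrophages and microglia 1 rose (4557 to 8418 against 4029 to 10285). Median log2 ratios were -1.36 for the glial list, 1.88 for smooth muscle and pericytes and 0.48 for epithelium. They were 0.00070 for neurons, -0.31 for astrocytes, 0.49 for endothelium and -0.81 for macrophages and microglia. Sums and medians thus did not always point the same way. None of the tested markers was below background on all arrays of a channel. For scale, 3.24% of all names tested were called higher and 3.39% lower in mucosa cells. The part of these lists in the carrier results was not tested.

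Metal carriers held the called pair. Slc39a8 (ZIP8) imports manganese and zinc together with bicarbonate, and Slc30a10 (ZnT10) is known chiefly as a manganese exporter although it bears the name of a zinc transporter. The probes that read them are shown because the metal result rests on them. The first 30 of their 60 bases, in lower case and 5′ to 3′, with rn4 positions of the whole probe, are:

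Slc39a8, standing probe, chr2:233402335-233402394, plus strand: acacatgcattcagtagcagacatacagac

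Slc39a8, other probe, chr2:233403324-233403383, plus strand: tgtgtttccctataagccaaaacacatttt

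Slc39a8, split probe, chr2:233398973-233400540, plus strand: tacttccatagcgatcctgtgtgaggagtt

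Slc30a10, only probe, chr13:101491418-101491477, plus strand: caatctagagtcttaccgaagcatagaagc

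The split Slc39a8 probe spans 1568 bases of the genome, far more than its own 60, so its bases come from separate stretches of the gene. For the others the span equals the probe's length. Whether they lie in coding or untranslated exons was not analysed here.

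Slc39a8 had log2 ratios of 2.04, 2.24, 0.97 and 2.11 on arrays 1 to 4. Array 3 was the lowest, and all 4 were positive. The log2 signals were 10.62, 11.08, 9.78 and 11.35 in mucosa cells and 8.58, 8.83, 8.81 and 9.24 in bulb cells, and the channels did not overlap. The mean ratio was 1.84 ± 0.59 (SD, n = 4; 95% interval 1.17 to 2.51), a 3.58-fold higher signal (limma adjusted p = 0.0172). The other probes pointed the same way, with 2.33 ± 0.92 and 1.32 ± 0.64 (SD, n = 4; limma adjusted p over all probes = 0.0199 and 0.0507). Without array 1, 2 or 4 the adjusted p of Slc39a8 was 0.0810, 0.0810 and 0.0629 at ratios of 1.77, 1.70 and 1.75.

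Slc30a10 had log2 ratios of -1.89, -2.24, -2.03 and -1.90. Its signals were 6.59, 7.06, 6.68 and 6.77 in mucosa cells and 8.48, 9.30, 8.72 and 8.67 in bulb cells, well above background on all 4 arrays in both. The arrays lay close together and the channels were far apart. The mean ratio was -2.01 ± 0.16 (SD, n = 4; 95% interval -2.49 to -1.54), a 4.04-fold lower signal in mucosa cells (limma adjusted p = 0.00481). The call held without each array in turn, at adjusted p-values of 0.0212 to 0.0382. By the deposited log ratio, which the scanner software computed, the ratio was larger in size, at -2.93 (limma adjusted p = 0.00748). With a background offset of 16 in place of 50 it was -2.42. The mucosa signals were low, just above those of Slc16a12 (6.07 to 6.58), which did not clear background there. The size of the ratio thus differed between background corrections.

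**Figure D1:**
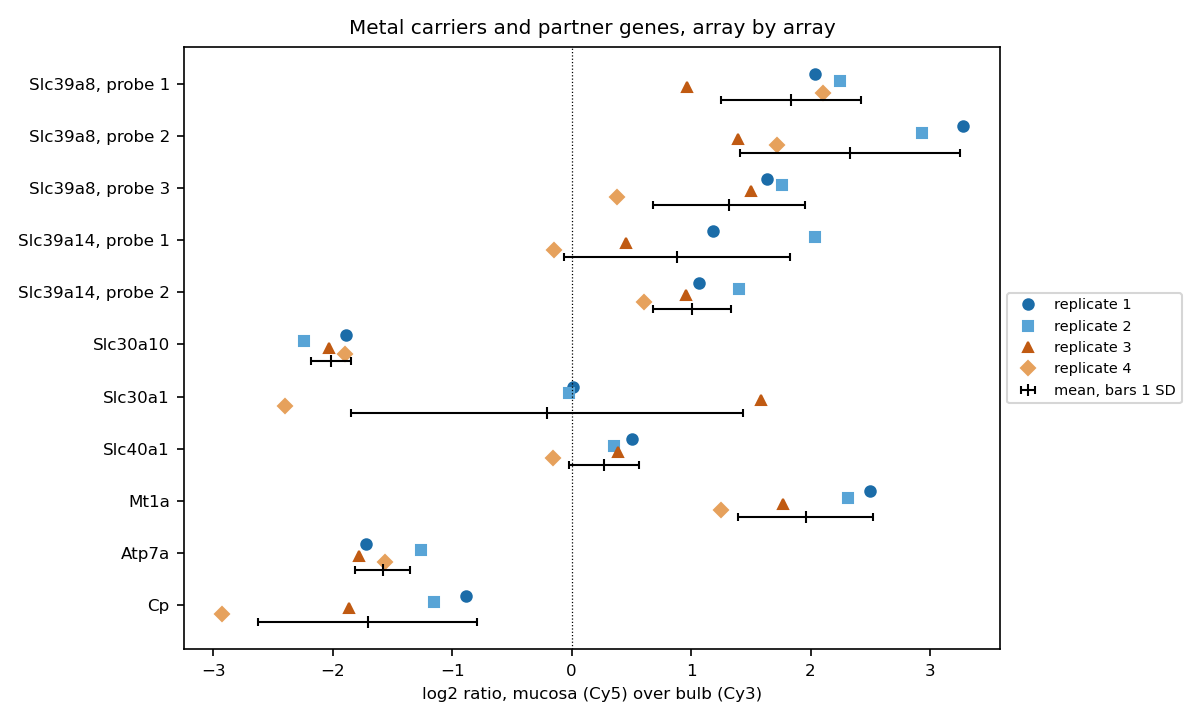
Log2 ratio of mucosa over bulb signal on each of 4 arrays (1 point an array, replicates 1 to 4) for 5 metal carriers, by probe for Slc39a8 and Slc39a14, and for Mt1a, Atp7a and Cp, with a bar at the mean and whiskers of 1 SD. Mt1a, Atp7a and Cp are shown as the called genes of the storage, copper and iron lists. All points of Slc39a8 and Mt1a lie above 0 and all of Slc30a10, Atp7a and Cp below 0, whereas Slc30a1 spreads from -2.40 to 1.58.

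The other metal carriers were not called. The plot of metal genes by array shows Slc39a14, Slc30a1 and Slc40a1, with means nearer to 0. Counting the called pair, the tested names were 8 of 9 zinc exporters (median -0.098, range -2.01 to 0.35) and 11 of 12 importers (median 0.33, range -0.80 to 1.84). Of the importers 8 had a positive mean and 3 a negative one. Slc39a14 (ZIP14), the importer of manganese, iron and zinc most akin to Slc39a8, had ratios of 1.19, 2.04, 0.45 and -0.15, so array 4 ran the other way. Its mean was 0.88 ± 0.94 (SD, n = 4; limma adjusted p = 0.220). Its other probe was positive on all 4 arrays, at 1.07, 1.40, 0.96 and 0.61, with a mean of 1.01 ± 0.33 (SD, n = 4; limma adjusted p over all probes = 0.0511).

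Slc30a1 (ZnT1), which exports zinc through the plasma membrane, had ratios of 0.013, -0.020, 1.58 and -2.40. Arrays 3 and 4 were thus far apart in opposite directions, and the mean of -0.21 ± 1.64 (SD, n = 4; limma adjusted p = 0.857) leaves its direction unsettled. Slc30a3 (ZnT3), known for loading zinc into synaptic vesicles, had a mean of 0.35 ± 0.81 (SD, n = 4; limma adjusted p = 0.570). Slc39a1 (ZIP1), a zinc importer, stood at -0.34 ± 0.32 (SD, n = 4; limma adjusted p = 0.395). Slc40a1 (ferroportin), the iron exporter, stood at 0.27 ± 0.30 (SD, n = 4; limma adjusted p = 0.483), with an interval of -0.25 to 0.79.

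Genes that handle metals beside the carriers were read from a list of storage, copper and iron genes. Tested were 3 storage and sensing, 4 copper and 10 iron genes, with 1 called in each group and medians of 0.76, -0.23 and -0.074. Over all names tested, 3.24% were called higher and 3.39% lower. Uncalled were, among others, Tfrc at -0.34 ± 1.19, Fth1 at -0.61 ± 0.63 and Ftl1 at 0.55 ± 0.20 (SD, n = 4; limma adjusted p = 0.686, 0.260 and 0.166). Metallothionein Mt1a, which binds zinc and copper, had ratios of 2.50, 2.31, 1.77 and 1.25, and all 4 arrays were positive. Its mean was 1.96 ± 0.56 (SD, n = 4), a 3.89-fold higher signal in mucosa cells (limma adjusted p = 0.0135). Without array 1 or 2 its adjusted p was 0.0651 and 0.0702 at ratios of 1.78 and 1.84, and its other probe gave 1.14 ± 1.75 (SD, n = 4). Mt3, the metallothionein of brain, stood at 0.76 ± 0.43 (SD, n = 4; limma adjusted p = 0.125).

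Atp7a, the copper-exporting pump, fell, with ratios of -1.72, -1.26, -1.78 and -1.57 and a mean of -1.58 ± 0.23 (SD, n = 4; limma adjusted p = 0.0109). Without array 1 or 2 its adjusted p was 0.0589 and 0.0516. Ceruloplasmin Cp, a copper ferroxidase that works with ferroportin, fell by 1.71 ± 0.91 on the log2 scale (SD, n = 4; limma adjusted p = 0.0472). Its call was lost without any 1 array (adjusted p = 0.0874 to 0.125), and its other probes gave -1.83, -1.29 and -1.69. Heph, another ferroxidase of the iron list, was positive on all 4 arrays at 0.98 ± 0.80 (SD, n = 4; limma adjusted p = 0.144). Heph was above background on 3 mucosa and 0 bulb arrays, so it entered the test through the channel where it was higher.

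Metallothionein genes are known targets of the zinc sensor MTF-1, which binds metal response elements. The gene of this sensor, Mtf1, stood at -0.82 ± 0.66 (SD, n = 4; limma adjusted p = 0.162), with array 4 alone positive at 0.16. The elements were searched as TGCACNC and TGCGCNC on both strands in the 250 bases before each start in RefSeq's promoters of GRCr8. At least 1 match was found in 20.6% of 33469 promoters, at least 2 in 4.9% and at least 5 in 0.0747%. The promoters of Mt1, the current name of Mt1a, and of Slc39a8 are shown with matches in capitals. They are metal genes called higher in mucosa cells and were chosen after their ratios were seen:

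Mt1, GRCr8 chr19:10832976-10833225, minus strand: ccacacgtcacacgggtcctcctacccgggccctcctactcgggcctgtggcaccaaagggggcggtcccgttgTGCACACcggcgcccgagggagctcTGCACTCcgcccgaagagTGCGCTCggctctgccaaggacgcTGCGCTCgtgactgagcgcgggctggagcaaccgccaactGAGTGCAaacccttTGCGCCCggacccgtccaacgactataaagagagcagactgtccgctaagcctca

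Slc39a8, GRCr8 chr2:226929941-226930190, plus strand: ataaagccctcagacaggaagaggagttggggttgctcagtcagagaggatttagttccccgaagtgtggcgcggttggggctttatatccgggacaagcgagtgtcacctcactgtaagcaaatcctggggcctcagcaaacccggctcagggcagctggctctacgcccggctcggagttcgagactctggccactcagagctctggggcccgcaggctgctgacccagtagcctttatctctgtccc

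The Mt1 stretch held 6 matches, 5 on its own strand and 1 on the other. The Slc39a8 stretch held 0, and that of Slc30a1 held 2. Slc30a10 had no entry among these promoters. A match is a run of letters in this window and no measurement of binding.

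Anion exchangers of the Slc26 family held the largest ratio of any member. Slc26a7, an exchanger and channel for chloride and other anions, had ratios of 2.23, 2.53, 3.31 and 0.77. Its signals were 9.28, 9.27, 10.46 and 7.74 in mucosa cells and 7.05, 6.74, 7.15 and 6.97 in bulb cells. Array 4 was the lowest in mucosa cells, yet the channels did not overlap. The mean was 2.21 ± 1.06 (SD, n = 4; 95% interval 1.22 to 3.20), a 4.63-fold higher signal (limma adjusted p = 0.0317), from 1 probe at rn4 chr5:28901375-28901517 on the minus strand, a span of 143 bases. Without array 1, 2 or 3 the adjusted p was 0.115, 0.118 and 0.0771 at ratios of 2.20, 2.10 and 1.84. By the deposited log ratio its value was 3.40 (limma adjusted p = 0.0443). Its bulb signals were low, and with a background offset of 16 in place of 50 the ratio was 2.64.

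Slc26a2, the sulfate carrier that feeds proteoglycan sulfation, had ratios of -0.45, -0.53, -1.38 and -1.01. All 4 were negative, but the mean of -0.84 ± 0.44 (SD, n = 4) did not pass (limma adjusted p = 0.100). Papss2, which activates sulfate for transfer, had a mean of 1.43 ± 0.73 (SD, n = 4) at a limma adjusted p of 0.0501. Slc26a11, the brightest probe of this family, stood at 0.13 ± 0.84 (SD, n = 4; limma adjusted p = 0.850). Of the 8 names 7 were tested, 4 positive and 3 negative.

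Bicarbonate transporters of the Slc4 family (10 of 10 tested, median -0.099) had 0 calls. Slc4a3, a chloride-bicarbonate exchanger, had ratios of 1.31, 0.43, 0.74 and 0.78. All 4 were positive, with a mean of 0.82 ± 0.36 (SD, n = 4; limma adjusted p = 0.0926). Slc4a2, another such exchanger, was negative on all 4 arrays at -0.47 ± 0.26 (SD, n = 4; limma adjusted p = 0.243). Slc4a4, the sodium-bicarbonate cotransporter of astrocytes, stood at 0.35 ± 0.53 (SD, n = 4; limma adjusted p = 0.464). Of the carbonic anhydrases, a family known for enzymes that form bicarbonate, 5 of 7 names were tested. Enzyme activity was not measured. Car2 (Ca2 on the array), Car8, Car9 and Car12 were not called (limma adjusted p = 0.314 to 0.933), and 1 gene was called. That gene, Car3 (Ca3 on the array), had ratios of 3.68, 3.59, 4.20 and 3.69 and a mean of 3.79 ± 0.28 (SD, n = 4; limma adjusted p = 0.00141), a 13.8-fold higher signal in mucosa cells. The call held without each array in turn, at ratios of 3.65 to 3.86.

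**Figure D2:**
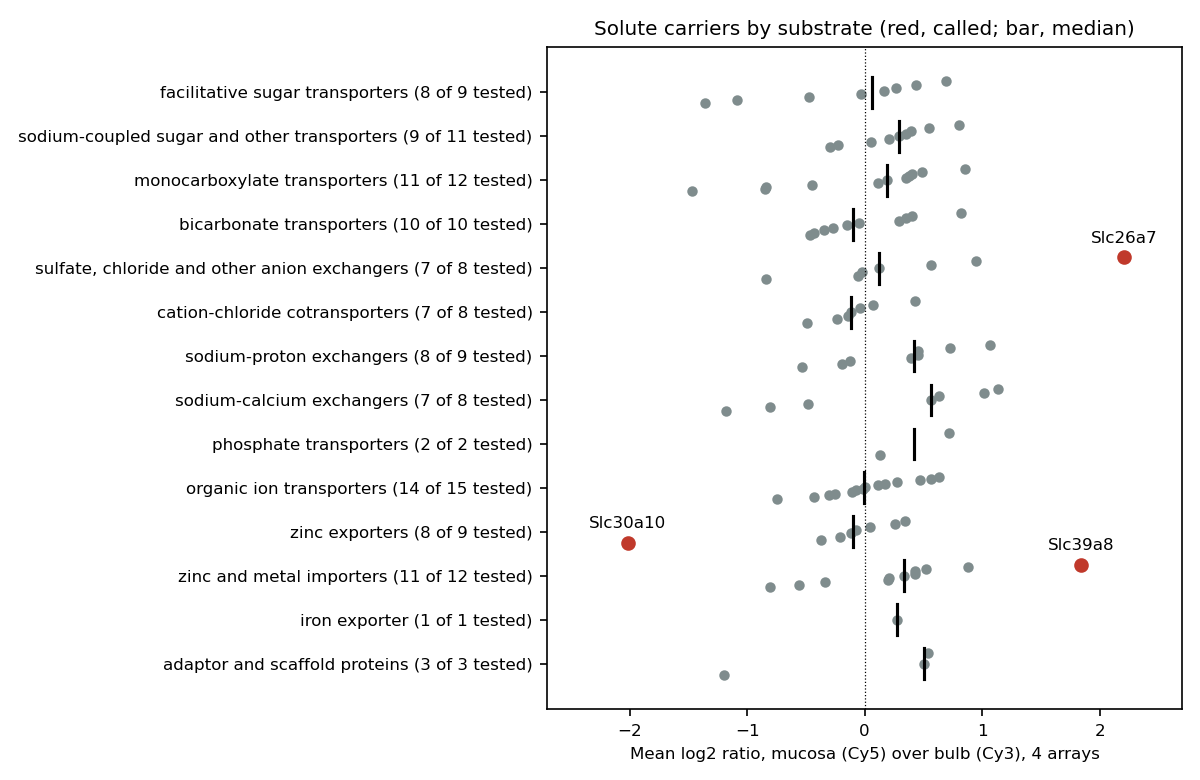
Mean log2 ratio of mucosa over bulb signal over 4 arrays for each member tested, 1 point a member, in rows by substrate, with called members in red and each row's median as a bar. Red points mark Slc26a7 at 2.21, Slc39a8 at 1.84 and Slc30a10 at -2.01, while the row medians lie between -0.12 and 0.57.

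No sugar carrier was called by limma, while 1 Slc2 and 1 Slc5 name had an unadjusted p under 0.05. The plot of members by substrate shows their means on both sides of 0. Of 9 facilitative Slc2 names 8 were tested, with 4 positive and 4 negative means. Slc2a1 (GLUT1), the general glucose transporter of glia and endothelium, had ratios of 0.60, -0.58, 0.31 and -0.48. Arrays 1 and 3 were positive and arrays 2 and 4 negative, and the mean was -0.034 ± 0.58 (SD, n = 4; limma adjusted p = 0.950). Its interval of -0.70 to 0.63 leaves differences of that size undetected. Slc2a3 (GLUT3), the high-affinity transporter typical of neurons, had 1.24, 1.06, 1.25 and -0.76, with array 4 alone below 0. Its mean was 0.70 ± 0.98 (SD, n = 4; limma adjusted p = 0.328).

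Slc2a4 (GLUT4), the insulin-sensitive transporter, stood at 0.27 ± 0.18 (SD, n = 4; limma adjusted p = 0.453). Slc2a12 (GLUT12) had the most negative mean of the family, from ratios of -0.15, -2.17, -2.29 and -0.81. All 4 were negative but they ranged widely, and the mean was -1.35 ± 1.05 (SD, n = 4; limma adjusted p = 0.111). Slc2a5 (GLUT5), a fructose transporter, was well above background on 0 mucosa and 1 bulb array and was not tested.

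Sodium-coupled Slc5 carriers had 9 of 11 names tested, 7 positive and 2 negative, with a median of 0.29. Slc5a9 (SGLT4), a mannose and glucose cotransporter, had ratios of 1.04, 1.06, 0.74 and 0.36. All 4 were positive, with a mean of 0.80 ± 0.33 (SD, n = 4; limma adjusted p = 0.0903). Slc5a3, which takes up inositol, stood at 0.36 ± 0.28 (SD, n = 4; limma adjusted p = 0.361), and its other probe at 0.45. Slc5a2 (SGLT2), the glucose cotransporter of kidney, stood at 0.55 ± 0.67 (SD, n = 4; limma adjusted p = 0.319), while its other probe gave -0.72 ± 0.96 (SD, n = 4). Slc5a7, the choline transporter of cholinergic neurons, was above background on 2 arrays in either channel and was not tested.

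Partner genes bore on both groups. Of 10 genes of sugar and lactate use, 0 were called, but each had a negative mean. The median of the list was -0.47, against 0.012 over all names. Means ran from -1.54 ± 1.33 for Pfkp to -0.012 ± 0.38 for Gpi (SD, n = 4; limma adjusted p = 0.128 and 0.981). The lactate dehydrogenases Ldha and Ldhb stood at -0.24 ± 0.11 and -1.28 ± 1.01 (SD, n = 4; limma adjusted p = 0.489 and 0.119). Impa2, an inositol monophosphatase, rose with a mean of 1.79 ± 0.80 (SD, n = 4; limma adjusted p = 0.0322). Its call was lost without array 1, 3 or 4 (adjusted p = 0.119, 0.0910 and 0.0881). Impa1, the other inositol monophosphatase listed, ran the other way on all 4 arrays, at -1.15 ± 0.88 (SD, n = 4; limma adjusted p = 0.120).

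Monocarboxylate transporters had 11 of 12 names tested and 0 called (median 0.19). Slc16a1 (MCT1), the lactate transporter of glia and endothelium, had ratios of -0.57, -0.32, -0.83 and -4.15. Array 4 was far below the others, and all 4 were negative. Its mean was -1.47 ± 1.80 (SD, n = 4; limma adjusted p = 0.233), and -0.58 without array 4. Slc16a7 (MCT2), the high-affinity pyruvate and lactate transporter of neurons, stood at -0.84 ± 0.91 (SD, n = 4; limma adjusted p = 0.228). Slc16a3 (MCT4), the low-affinity lactate exporter of glycolytic cells, stood at 0.11 ± 0.37 (SD, n = 4; limma adjusted p = 0.801), and Slc16a6, the brightest probe of the family, at 0.37 ± 0.40 (SD, n = 4; limma adjusted p = 0.381). Basigin (Bsg), the chaperone that carries MCT1 and MCT4 to the membrane, stood at -0.49 ± 0.94 (SD, n = 4; limma adjusted p = 0.465).

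Slc16a12, a creatine transporter, was the only tested member not well above background on every array of 1 channel. It was above background in the bulb channel of all 4 arrays and in the mucosa channel of 0. Its log2 signals were 6.20, 6.07, 6.58 and 6.52 in mucosa cells and 6.61, 7.43, 7.52 and 7.20 in bulb cells, so the channels did not overlap by a small margin. The ratios were -0.41, -1.37, -0.94 and -0.68, with a mean of -0.85 ± 0.41 (SD, n = 4; limma adjusted p = 0.0924). On every array its own mucosa signal set the bound, so the bound equals the measured difference, a 1.80-fold lower mean. That is no minimum, since the 95% interval of the log2 ratio was -1.42 to -0.28 and the gene was not called. Slc16a12 entered the test through the bulb channel, where it was higher.

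**Figure D3:**
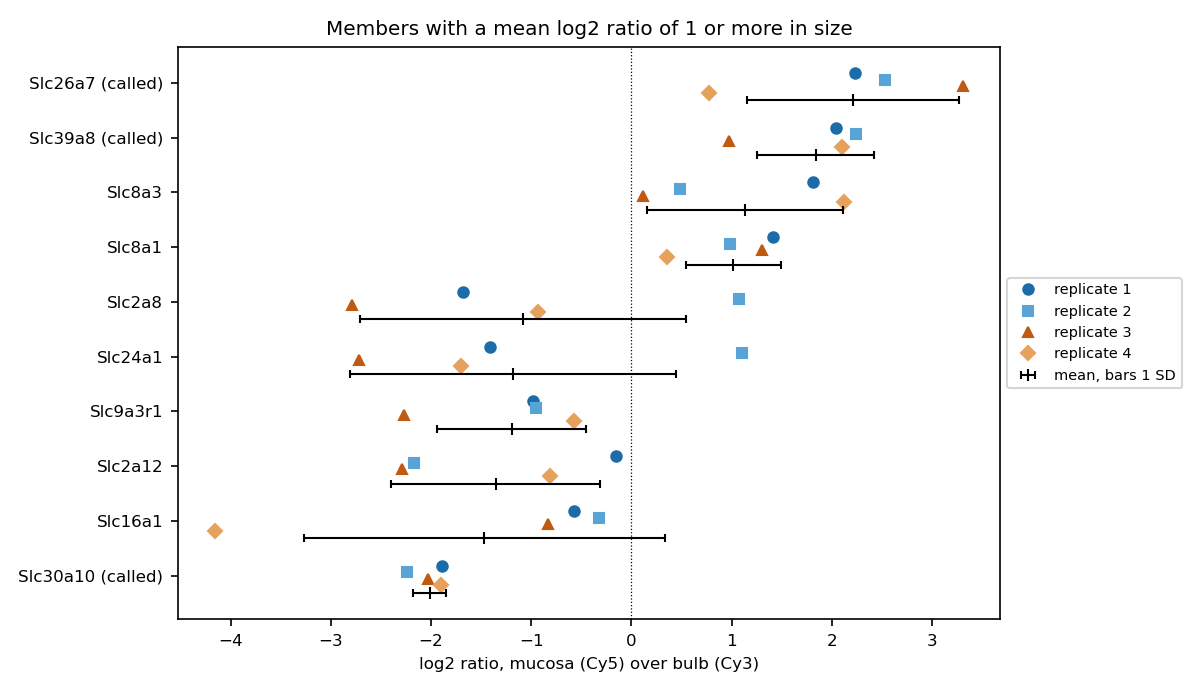
Log2 ratio of mucosa over bulb signal on each of 4 arrays (1 point an array) for 10 of the 11 members whose mean ratio was at least 1 in size, with the mean and whiskers of 1 SD below the points. The points of Slc30a10 lie within -2.24 to -1.89, whereas Slc16a1 has array 4 at -4.15 and Slc2a8 and Slc24a1 have points on both sides of 0.

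The plot of the largest ratios shows that size alone did not decide the calls. Slc2a8 (GLUT8), a sugar transporter of inner membranes, had ratios of -1.68, 1.07, -2.79 and -0.93. Array 2 was positive and the others negative, and the mean of -1.08 ± 1.63 (SD, n = 4) did not pass (limma adjusted p = 0.322).

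Cation-chloride cotransporters had 7 of 8 names tested, 2 positive and 5 negative, and 0 at an unadjusted p under 0.05. Slc12a2 (NKCC1), which brings sodium, potassium and chloride into cells, had ratios of 0.63, 0.43, -0.87 and -0.77. Arrays 1 and 2 were positive and arrays 3 and 4 negative, and the mean was -0.15 ± 0.78 (SD, n = 4; limma adjusted p = 0.818). Its other probe gave 0.31 ± 1.95 (SD, n = 4). Slc12a5 (KCC2), the chloride extruder of neurons, stood at -0.039 ± 0.65 (SD, n = 4; limma adjusted p = 0.947), and its other probe at -0.40. Slc12a4 (KCC1), the widespread potassium-chloride cotransporter, stood at 0.43 ± 0.41 (SD, n = 4; limma adjusted p = 0.323). Slc12a7 (KCC4) stood at 0.072 ± 0.70 by its brightest probe (SD, n = 4; limma adjusted p = 0.906) and between -0.64 and -0.23 by its 4 other probes. Slc12a1 (NKCC2), the kidney cotransporter, stood at -0.49 ± 0.74 (SD, n = 4; limma adjusted p = 0.396) and was above background on 1 mucosa array. Of the 5 kinases that control these carriers, 0 were called.

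Sodium-proton exchangers had 8 of 9 names tested (median 0.42), 5 positive and 3 negative. Slc9a4 (NHE4), chosen here after its values were seen, cleared background in the mucosa channel of 4 arrays and in the bulb channel of 1. It entered the test through the channel where it was higher, and its ratio of 0.73 ± 0.46 (SD, n = 4; limma adjusted p = 0.144) rests on bulb signals mostly not above background. By the deposited log ratio the value was 2.25 and passed (limma adjusted p = 0.0434), so its size differed between background corrections.

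Scaffold proteins tie such exchangers to the actin cortex. Slc9a3r1 (NHERF1), which links them to ezrin, had ratios of -0.99, -0.95, -2.27 and -0.57. All 4 were negative, with a mean of -1.19 ± 0.74 (SD, n = 4; limma adjusted p = 0.0833). Ezrin (Ezr, Vil2 on the array) fell by 1.11 ± 0.21 on the log2 scale (SD, n = 4; limma adjusted p = 0.0305), and its call was lost without any 1 array (adjusted p = 0.0804 to 0.141). Slc9a3r2 and Slc4a1ap had means of 0.54 and 0.50.

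Sodium-calcium exchangers had 7 of 8 names tested, 4 positive and 3 negative, with a median of 0.57 and 0 calls. Slc8a1 (NCX1), the exchanger of heart, muscle and glia, had ratios of 1.41, 0.99, 1.31 and 0.36. All 4 were positive, with a mean of 1.02 ± 0.48 (SD, n = 4; 95% interval 0.41 to 1.62; limma adjusted p = 0.0686). It passed with median centring, at 1.20 (limma adjusted p = 0.0438). Its other probes gave 1.1 ± 2.2 and 1.48 ± 0.92 (SD, n = 4). Slc8a3 (NCX3), known from brain and skeletal muscle, had ratios of 1.81, 0.48, 0.12 and 2.12 and a mean of 1.13 ± 0.98 (SD, n = 4; limma adjusted p = 0.146). Slc8a2 (NCX2) ran the other way on all 4 arrays, at -0.80 ± 0.55 (SD, n = 4; limma adjusted p = 0.140). It was above background on 1 mucosa and 4 bulb arrays, so it entered the test through the channel where it was higher.

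Slc24a1, the potassium-dependent exchanger of rod photoreceptors, stood at -1.18 ± 1.62 (SD, n = 4; limma adjusted p = 0.283). Slc24a3, another potassium-dependent exchanger, stood at 0.64 ± 0.57 (SD, n = 4; limma adjusted p = 0.222), but its other probe gave -0.28 ± 0.96 (SD, n = 4). Among 4 tested calcium pumps 1 was called. That pump, Atp2b4 (PMCA4), fell by 1.91 ± 0.81 on the log2 scale (SD, n = 4; limma adjusted p = 0.0269). Without array 1, 2 or 4 its adjusted p was 0.0734, 0.103 and 0.0759.

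Phosphate carriers were both above background. Slc20a1 (PiT1) had ratios of 0.90, 1.24, -1.06 and -0.56, positive on arrays 1 and 2 and negative on arrays 3 and 4. Its mean was 0.13 ± 1.11 (SD, n = 4; limma adjusted p = 0.875). Slc20a2 (PiT2) was positive on all 4 arrays at 0.72 ± 0.66 (SD, n = 4; limma adjusted p = 0.207). Enpp1, the ectoenzyme that makes pyrophosphate, rose with a mean of 1.25 ± 0.34 (SD, n = 4; limma adjusted p = 0.0278), and its call was lost without any 1 array (adjusted p = 0.0706 to 0.0953).

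Organic ion transporters of the Slc22 family had 14 of 15 names tested, 7 positive and 7 negative, with 0 calls. Slc22a4 (OCTN1), the ergothioneine transporter, had the most negative mean, -0.75 ± 1.04 (SD, n = 4; limma adjusted p = 0.319), with array 1 positive at 0.77. Slc22a5 (OCTN2), the carnitine transporter, stood at -0.073 ± 1.07 (SD, n = 4; limma adjusted p = 0.931). Slc22a17, a receptor for lipocalin-bound iron, was negative on all 4 arrays at -0.43 ± 0.28 (SD, n = 4; limma adjusted p = 0.276). Slc22a12 (URAT1), the urate exchanger of kidney, had the brightest probe of the family and stood at 0.27 ± 0.46 (SD, n = 4; limma adjusted p = 0.539).

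Most carriers were detected in both cultures. By the probe that stands for each name, 83 names were well above background in both channels on all 4 arrays, and no member's spot was saturated. Of the 11 names not tested, Slc12a3 and Slc30a8 were above background on no array. The others were Slc16a10, Slc22a19, Slc24a2, Slc26a3, Slc2a5, Slc39a12, Slc5a5, Slc5a7 and Slc9a10, each above background on at most 2 arrays a channel. A name that was not tested is not shown to be unexpressed.

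Spread of the ratios between arrays was near that of all names. The median SD of a member's 4 ratios was 0.57, against 0.53 over all names, and 36 of 106 members (34.0%) had 1 sign on all 4 arrays, against 33.6% of all names. The median ratio was 0.13 over members (60 positive, 46 negative) and 0.012 over all names. A mean ratio of at least 1 in size was found for 11 members (10.4%) and for 12.9% of all names. Across members, ratios of array pairs correlated at 0.19 to 0.39 (Pearson, n = 106 genes), and across all 31868 names at 0.35 to 0.54. Genes are not independent replicates, and the arrays share a slide and a scan. Other Slc names on the array numbered 153, of which 136 were tested and 11 (8.09%) were called.

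**Figure D4:**
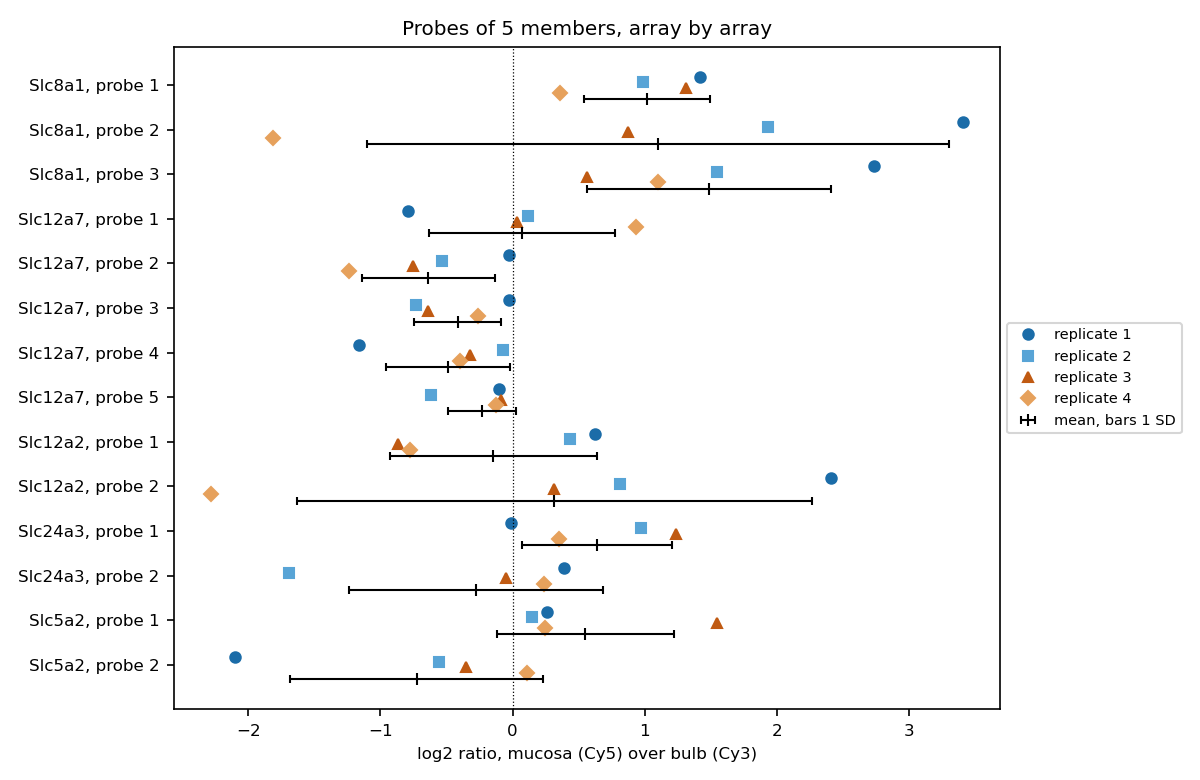
Log2 ratio of mucosa over bulb signal on each of 4 arrays (1 point an array) for every tested probe of Slc8a1, Slc12a7, Slc12a2, Slc24a3 and Slc5a2, with the mean and whiskers of 1 SD. The means of the 3 Slc8a1 probes lie above 0, while the other 4 members have probe means on both sides of 0.

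Of the members 20 had more than 1 tested probe, and for 5 of them (Slc12a2, Slc12a7, Slc16a6, Slc24a3 and Slc5a2) the probe means had both signs. The means of the 3 probes of Slc39a8 (1.32 to 2.33) and the 3 of Slc8a1 (1.02 to 1.48) were all positive, but the plot of probes by array shows array 4 at -1.81 for 1 probe of Slc8a1. None of the 5 members with probes of both signs was called, and Slc30a10 and Slc26a7 have 1 probe each, so no other probe bears on them. Over all partner genes, 55 of 61 were tested, 4 were called higher and 4 lower, with a median of -0.14. Over all names tested, 3.24% were called higher and 3.39% lower. By the deposited log ratio the calls of Atp2b4, Ezr, Cp and Impa2 were lost (limma adjusted p = 0.0540, 0.0602, 0.0826 and 0.0612), and with median centring those of Ezr and Cp (0.0674 and 0.0613).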

How the data were processed

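RNA of cultured olfactory ensheathing cells was measured on 4 two-colour Agilent arrays with probes of 60 bases. Images were read with Feature Extraction, version 10.5.1.1 per the file headers and 9.1 per the submitters' processing notes. The deposited mean and background signals are linear intensity values. The deposited ratios are log10 of Cy5 over Cy3 after the software's own background subtraction and dye normalization, per the file headers, and the deposited value table was identical to them. Median signals were 567 to 842 in Cy5 and 342 to 382 in Cy3, and the number of arrays limits the precision.

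Here, signals were corrected with normexp (offset 50) and normalized by loess within arrays. Control spots had weight 0, flagged outliers were dropped, and repeated spots were averaged per probe. Probes well above background in at least 0.5 of their spots on at least 3 arrays in 1 channel were tested, and the brightest stood for its name. limma 3.58.1 in R 4.3.3 compared the mean log2 ratio with 0 (two-sided), with Benjamini-Hochberg adjustment over 31868 names. Channel signals were scaled between arrays with Aquantile. A bound sets the bright channel's mean against, on each array, the higher of the lowest signal among probes well above background and the dim probe's own. These values are open to dye bias. The fit was tested on simulated data. Replicates are biological per the labels and paired per the design text, with mucosa and bulb cells of a pair on 1 array. All arrays shared 1 slide and 1 scan time, so no batch could be tested. PCR amplification can change the ratio of transcripts.

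Members and lists were chosen with earlier results of these data known. Named were called members, the largest ratio and brightest probe of each family, a list of well-known carriers and members below background in 1 channel. A named member is not reported here. Of the 117 names, 80 were matched to current symbols of RefSeq (GRCr8) by accession, 35 by symbol and 2 by synonym, and 6 had a newer symbol. Alternatives covered background, normalization, filters, probe choice, variance model, the block and each array left out.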

Additional observations from a re-analysis of the deposited data

Results flagged for a closer look

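Among the 42 named members, 5 had 1 array far from the other 3 relative to the range of the 4 ratios, a gap that chance gives in about 1 of 20 groups. Slc2a4 had array 3 far below the others, at a gap of 0.951 of the range, and its mean without it was 0.36 against 0.27. Slc5a2 had array 3 far above the others (0.916), and its mean without it was 0.22 against 0.55. Slc2a3 had array 4 far below (0.907), and its mean without it was 1.18 against 0.70 (limma adjusted p = 0.0674). Slc16a1 had array 4 far below (0.867), and its mean without it was -0.58 against -1.47. Slc39a8 had array 3 far below (0.840), and its mean without it was 2.13 against 1.84 (limma adjusted p = 0.0179). Over all 106 members tested, 7 had such an array.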

How the results depend on the processing

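The count of members higher in mucosa cells was 2, and it was 4 with median centring or array weights. It was 3 with processed signals, the deposited log ratio or the value table, which added Slc9a4. A trended variance model also gave 3, and leaving out 1 array gave 0 to 1. The count of lower members was 1, and 2 with processed signals, the deposited log ratio, the value table or median centring. The added name was Slc16a12, whose mucosa signal was not above background on any array. Treating the channels as unpaired, with no replicate block, gave 5 higher and 4 lower members, and 1636 names higher over the array, of 9.88% called. Over all names, 694 were lower with processed signals, the deposited log ratio or the value table, and leaving out 1 array gave 282 to 539 higher and 263 to 522 lower. Slc30a10 passed in the main setting and all 20 alternatives, which are not separate checks. Processed signals, the deposited log ratio and the value table gave the same ratio of -2.93. Averaging probes or leaving out saturated ones could not change the ratio of its 1 unsaturated probe.

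Signs that turned were all of uncalled members, and the causes were not tested. Averaging probes gave 0.085 for Slc12a2, -0.34 for Slc12a7 and -0.088 for Slc5a2. Median centring gave 0.20 for Slc2a1, -0.0071 for Slc2a4, 0.10 for Slc22a5 and 0.00054 for Slc30a1. Slc12a5 was 0.100 with no background subtraction, 0.12 with processed signals, the deposited log ratio or the value table, 0.031 with scale normalization and 0.092 with array weights, which gave 0.058 for Slc12a2. With 1 array left out, ratios ranged from -0.40 to 0.095 for Slc12a2, -0.27 to 0.22 for Slc12a5, -0.21 to 0.36 for Slc12a7, -0.24 to 0.53 for Slc20a1, -0.39 to 0.33 for Slc22a5, -0.13 to 0.40 for Slc26a11, -0.25 to 0.15 for Slc2a1 and -0.80 to 0.52 for Slc30a1.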
